A study of Mus musculus with 16 samples.

Results

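The genes described here are 36 genes of cholesterol and fatty acid synthesis, out of 45724 genes measured. They were chosen by name, with earlier results of these data known: 7 enzymes of the mevalonate pathway, 11 enzymes of the sterol branch, 6 genes that regulate the pathway or carry sterol inside the cell, 9 enzymes of fatty acid synthesis, and 3 genes that act against cholesterol accumulation, by export or by lowering uptake. The list does not hold every gene of these pathways. The cells were primary neurons from the brain of C57BL/6 mice on postnatal day 0, in 4 groups of 4 libraries of total RNA. The control group received the vehicle, DPBS (Dulbecco's phosphate-buffered saline), and the other groups received NP24, Tβ10 or Tβ4 (Tb10 and Tb4 in the plots), peptides that the study's design text ties to the subcommissural organ, which secretes into the cerebrospinal fluid. Tβ10 and Tβ4 belong to the β-thymosins, whose best known partner is monomeric actin. The labels give no dose or duration. They do not state that replicates come from separate cultures either, and p-values then measure only the spread between these samples. All 4 groups share the C57BL/6 genotype.

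Cells build cholesterol from acetyl-CoA: the mevalonate pathway makes isoprene units, squalene is formed from these and closed into lanosterol, and the sterol branch trims lanosterol to cholesterol. When sterol in the endoplasmic reticulum runs low, the escort protein SCAP carries the SREBP transcription factors to the Golgi, where they are cut and released to switch on these enzymes, while INSIG proteins hold the complex back when sterol is plentiful. SREBP-2 (Srebf2) acts mainly on the sterol genes and SREBP-1 (Srebf1) mainly on the fatty acid genes; the oxysterol receptor LXR switches on the exporters Abca1 and Abcg1, and Mylip, whose product marks lipoprotein receptors for degradation. Blood lipoproteins do not supply the brain with cholesterol, so neurons and glia depend on synthesis within the tissue and on transfer between cells.

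Promoters of 4 members are shown because SREBPs act together with the factors NF-Y and SP1, and because they set enzymes that fell with NP24 beside one that did not pass the test. Each run is 250 bases before to 50 bases after a transcription start site, from RefSeq on GRCm38.p6, 5′ to 3′ along the gene. Capitals mark matches to the NF-Y box CCAAT and to the sterol regulatory element core TCACNCCAC. A box that lies on the opposite strand reads ATTGG.
Lss: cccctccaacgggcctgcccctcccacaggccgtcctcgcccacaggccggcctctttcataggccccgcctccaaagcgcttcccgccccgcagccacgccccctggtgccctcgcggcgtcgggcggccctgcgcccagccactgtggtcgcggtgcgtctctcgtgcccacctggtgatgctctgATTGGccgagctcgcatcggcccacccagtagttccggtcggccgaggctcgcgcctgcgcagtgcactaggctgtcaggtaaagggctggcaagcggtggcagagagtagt
Mvk: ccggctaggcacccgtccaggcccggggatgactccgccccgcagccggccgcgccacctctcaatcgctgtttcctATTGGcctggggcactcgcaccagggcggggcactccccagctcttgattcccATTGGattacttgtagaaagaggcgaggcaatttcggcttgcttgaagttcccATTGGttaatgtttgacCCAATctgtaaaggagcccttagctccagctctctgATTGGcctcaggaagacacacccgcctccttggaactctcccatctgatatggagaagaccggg
Msmo1: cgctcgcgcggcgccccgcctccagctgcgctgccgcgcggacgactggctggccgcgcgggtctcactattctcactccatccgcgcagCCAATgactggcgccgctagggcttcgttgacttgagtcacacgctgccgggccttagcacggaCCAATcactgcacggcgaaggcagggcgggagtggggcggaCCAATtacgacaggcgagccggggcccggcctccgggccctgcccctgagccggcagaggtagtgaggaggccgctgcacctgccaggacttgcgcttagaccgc
Hmgcs1: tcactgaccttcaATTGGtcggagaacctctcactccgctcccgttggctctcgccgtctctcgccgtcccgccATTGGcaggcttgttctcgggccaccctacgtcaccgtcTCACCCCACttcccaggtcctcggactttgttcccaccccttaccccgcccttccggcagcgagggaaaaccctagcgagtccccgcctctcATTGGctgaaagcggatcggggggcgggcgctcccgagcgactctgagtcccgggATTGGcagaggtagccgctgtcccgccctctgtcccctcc
The windows are chr10:76531355-76531654, plus strand for Lss, chr5:114444019-114444318, plus strand for Mvk, chr8:64733529-64733828, minus strand for Msmo1 and chr13:119690101-119690400, plus strand for Hmgcs1. Lss, whose enzyme closes squalene epoxide into lanosterol, has 1 NF-Y box, Mvk has 5, Msmo1 has 3 and Hmgcs1 has 4. The single sterol regulatory core among the 28 members with a promoter in the table lies in Hmgcs1, with its first base 137 bases before the start site. Among all 27025 genes with a promoter in the table, 1.44% hold that core. The NF-Y box was found for 14 of 15 sterol enzymes (93.3%) and 3 of 6 fatty acid enzymes (50%), and for 41.1% of all genes. The SP1 box GGGCGG, not in capitals here, was found for 14 of 15 sterol enzymes (93.3%) and 3 of 6 fatty acid enzymes (50%), against 38.2% of all genes. Both strands were searched, and matches to different motifs did not overlap in the members' windows. A match describes the letters of the window, not binding. The 4 promoters printed were picked by the test result, so they do not show whether a motif goes with a fall.

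Libraries held 11642242 to 38254320 reads in genes, and every member had at least 17 reads in every library, the fewest for Ebp in Tβ10 library 4. All 36 members passed the filter on low values (a value of 10 or more in 4 or more of the libraries compared). Values are normalized counts, the reads of a gene divided by the library's size factor. Mitochondrial ribosomal RNA made up 11.3 ± 2.07% of control reads (mean ± SD, n = 4). The NP24 and Tβ10 groups had 7.15 ± 1.03% and 7.20 ± 1.96%, and the Tβ4 group 15.3 ± 6.71%. Markers of other cells were present beside those of neurons: summed normalized counts in controls were 55772 to 62685 over 6 neuronal genes, 5077 to 6357 over 6 astrocyte genes, 10764 to 13140 over 8 oligodendrocyte lineage genes, 1641 to 1982 over 7 microglial genes, 184 to 317 over 5 fibroblast genes and 329 to 489 over 5 pericyte and endothelial genes. In every group Slc1a3 made up most of the astrocyte sum and Cx3cr1 most of the microglial sum. Lum was at 0 in every control library, and Cldn5 was at 0 in every NP24 and Tβ10 library. In bulk RNA, fewer cells of a type and less RNA per cell cannot be told apart.

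In control cultures the pathway was expressed over a wide range of levels per kilobase of exon. Scd2, the stearoyl-CoA desaturase that predominates in brain, was highest at 2926 ± 180.1 normalized counts per kilobase (mean ± SD, n = 4), and Hmgcs1, which makes the HMG-CoA that enters the mevalonate pathway, followed at 2629 ± 247; their ranges over the 4 libraries overlapped. The desaturase Fads2 stood at 1046 ± 23.7 and Acly, the enzyme that cuts citrate into acetyl-CoA for both pathways, at 869 ± 42.2. The lowest levels per kilobase were those of Ebp, the sterol isomerase, at 52.9 ± 13.5 and the exporter Abcg1 at 40.5 ± 5.65, whose ranges overlapped too. Of the members, 12 share some exon bases with another annotated gene and 5 share over 10% of them: Hmgcs1, Fdps, Fdft1, Tm7sf2 and Scap. The strand setting of the counting is not given in the sources used here, so values of these 5 may include reads of their neighbours.

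**Figure D1:**
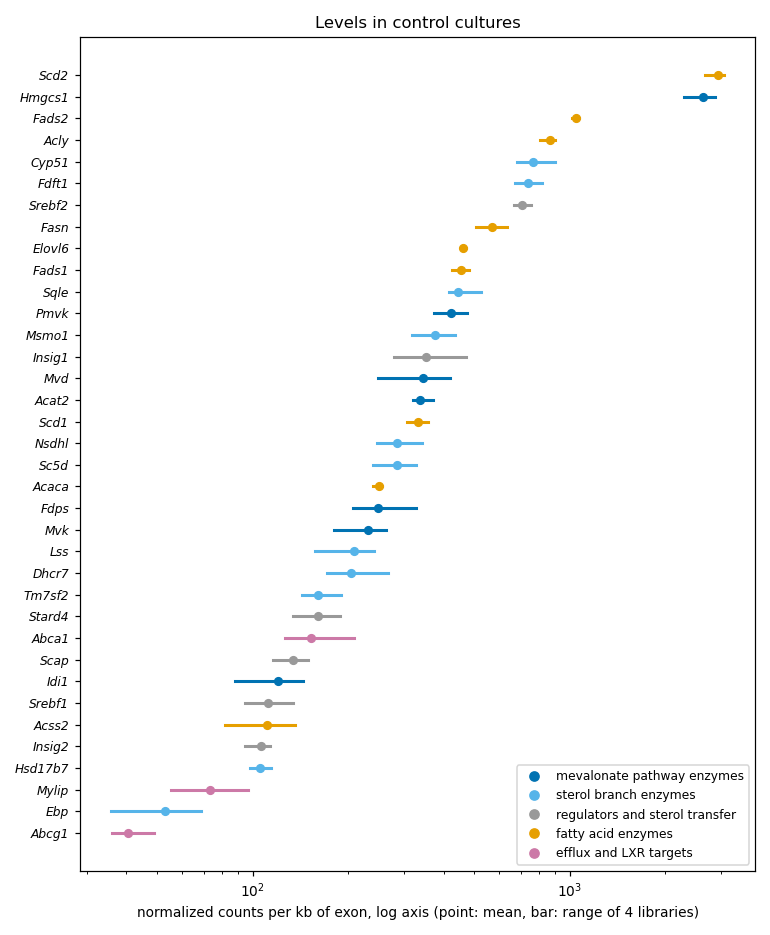
Levels of the 36 members in the 4 control libraries, as normalized counts per kilobase of exon on a log axis; points are means, bars the range of the 4 libraries, colours the role. Scd2 (2926) and Hmgcs1 (2629) stand highest and Ebp (52.9) and Abcg1 (40.5) lowest.

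The comparison of NP24 with the vehicle asked which transcripts differ in neurons that received this peptide. With NP24, 7 members fell and none rose: the sterol enzymes Mvk, Lss, Tm7sf2 and Msmo1, the sterol carrier Stard4, and Acly and Acss2, which make acetyl-CoA for both cholesterol and fatty acids. Among all 21774 genes tested, 319 fell, 1.47%, and 253 rose; with scaling to library size 257 fell and 509 rose. In 11 of the 36 members every NP24 library lay below every control library, against 4.77% of all genes. Of the 36 members 33 had a negative log2 difference, with a median of -0.21, where the median over all genes was -0.0038 and 50.5% were negative. By role, 1 of 7 mevalonate enzymes, 3 of 11 sterol branch enzymes, 1 of 6 regulators and carriers, 2 of 9 fatty acid enzymes and 0 of 3 efflux genes fell. In what follows a difference is given on the log2 scale with its SE, and limma's p is adjusted over all genes tested.

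Among the mevalonate enzymes, Mvk, mevalonate kinase (ENSMUSG00000041939.14, chromosome 5, 114444269 to 114460591, plus strand, GRCm38), had 696, 584, 484 and 704 normalized counts in control libraries 1 to 4 and 460.4, 386, 350.1 and 412 in NP24 libraries 1 to 4. All 4 NP24 libraries were below all controls, the highest of them by a small margin. Mvk fell 1.52-fold (-0.61 ± 0.14, adjusted p = 0.0255). Mvd, mevalonate diphosphate decarboxylase, had a difference of almost the same size and missed the threshold (-0.60 ± 0.16, adjusted p = 0.0506), with control libraries at 779.7, 537, 462 and 776 and NP24 libraries at 489, 425, 380.3 and 357, which overlap. The other members of this class, Pmvk (-0.35), Idi1 (-0.34), Fdps (-0.25), Hmgcs1 (-0.12) and Acat2 (-0.06), had smaller negative values that did not pass. Hmgcs1, the most highly expressed sterol enzyme, had 95% limits of -0.31 to 0.06.

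In the sterol branch, Lss (ENSMUSG00000033105.12, chromosome 10, 76531588 to 76557138, plus strand), whose promoter is printed above, had 2595, 2230.2, 1702 and 2497 normalized counts in controls and 1447, 1458, 1387 and 1523 with NP24. The NP24 libraries were tightly grouped and all lay under the lowest control, library 3. Lss fell 1.53-fold (-0.62 ± 0.11, adjusted p = 0.00521). Msmo1, the methylsterol monooxygenase that starts removal of the methyl groups at carbon 4 of the ring (ENSMUSG00000031604.10, chromosome 8, 64718139 to 64733792, minus strand), went from 2664, 2162, 1961 and 2441 to 1645, 1487, 1562 and 1596. Here too the groups did not overlap, and control library 1 was the highest. The fall was 1.46-fold (-0.54 ± 0.10, adjusted p = 0.0057). Tm7sf2, a sterol reductase of the same branch (ENSMUSG00000024799.16, chromosome 19, 6062821 to 6068373, minus strand), had 839, 687, 629 and 681 in controls and 496, 454, 445 and 504 with NP24, with no overlap. It fell 1.49-fold (-0.57 ± 0.13, adjusted p = 0.0174); 12.1% of its exon bases are shared with Vps51. The remaining 8 enzymes of the branch did not pass: Ebp was at -0.34, Sqle, the squalene epoxidase, at -0.25, Hsd17b7 at -0.22, Nsdhl at -0.19, Sc5d at -0.14, Cyp51, the lanosterol demethylase, at -0.09, Dhcr7 at -0.07 and Fdft1, squalene synthase, at -0.07. Ebp had 158, 82.4, 120.1 and 128 in controls and 100.1, 78.9, 102 and 96.9 with NP24, which overlap. All 18 sterol enzymes thus had negative values, with a median of -0.25.

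Of the regulators and carriers, Stard4, which moves cholesterol between membranes (ENSMUSG00000024378.9, chromosome 18, 33199355 to 33213862, minus strand), had 1054, 826, 751 and 958 in controls and 526, 538, 590.1 and 695 with NP24. Every NP24 library was below every control. Stard4 fell 1.52-fold (-0.61 ± 0.13, adjusted p = 0.0145). Insig1, itself a target of SREBP, had 1453, 1044, 864 and 979.8 and 829, 883, 783 and 749, with overlap through control library 3 (-0.40 ± 0.13, adjusted p = 0.115). Srebf2 had 5031, 5135, 4787 and 5432 against 4287, 4466, 4289.9 and 3888; the groups did not overlap, but the difference missed the threshold (-0.27 ± 0.08, adjusted p = 0.0916). Srebf1 had 532, 688, 549.6 and 754 against 666, 739, 499.7 and 558, and the groups overlapped (-0.04 ± 0.14, adjusted p = 0.934). Scap (0.21) and Insig2 (0.13) had positive values that did not pass.

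The fatty acid enzymes that passed the threshold were those that supply acetyl-CoA. Acly (ENSMUSG00000020917.17, chromosome 11, 100476353 to 100528000, minus strand) had 4603, 4730.1, 4266 and 4744 in controls and 3286, 3545, 3364 and 3027 with NP24. The control libraries were close together and the groups were far apart relative to their spread. Acly fell 1.39-fold (-0.47 ± 0.09, adjusted p = 0.0045), the smallest adjusted p of the 36 members. Acss2, which makes acetyl-CoA from acetate (ENSMUSG00000027605.18, chromosome 2, 155517948 to 155585724, plus strand), had 1381, 1133, 832 and 1167 in controls and 838, 649, 788 and 655 with NP24. NP24 library 1 was just above control library 3, and the others were lower. It fell 1.52-fold (-0.61 ± 0.14, adjusted p = 0.02). The 7 enzymes further along had differences between -0.21 (Scd1) and -0.01 (Scd2) and none passed: Fasn, the fatty acid synthase, was at -0.21, Fads1 at -0.20, the elongase Elovl6 at -0.19, Acaca, acetyl-CoA carboxylase, at -0.15 and Fads2 at -0.03. For Scd2 the 95% limits were -0.20 to 0.18 and for Fads2 -0.21 to 0.15, neither of which reaches the fall of Acly. The lower limits of Fasn (-0.45), Scd1 (-0.41), Elovl6 (-0.40), Fads1 (-0.40) and Acaca (-0.35) lay within the limits of Acly, -0.65 to -0.29. Scd1 and Fads1 had an unadjusted limma p of 0.043 and 0.040, and every NP24 library was below every control for Scd1. The values thus do not separate these enzymes from Acly. All 9 were negative with a median of -0.20, or 7 of 9 with scaling to library size.

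**Figure D2:**
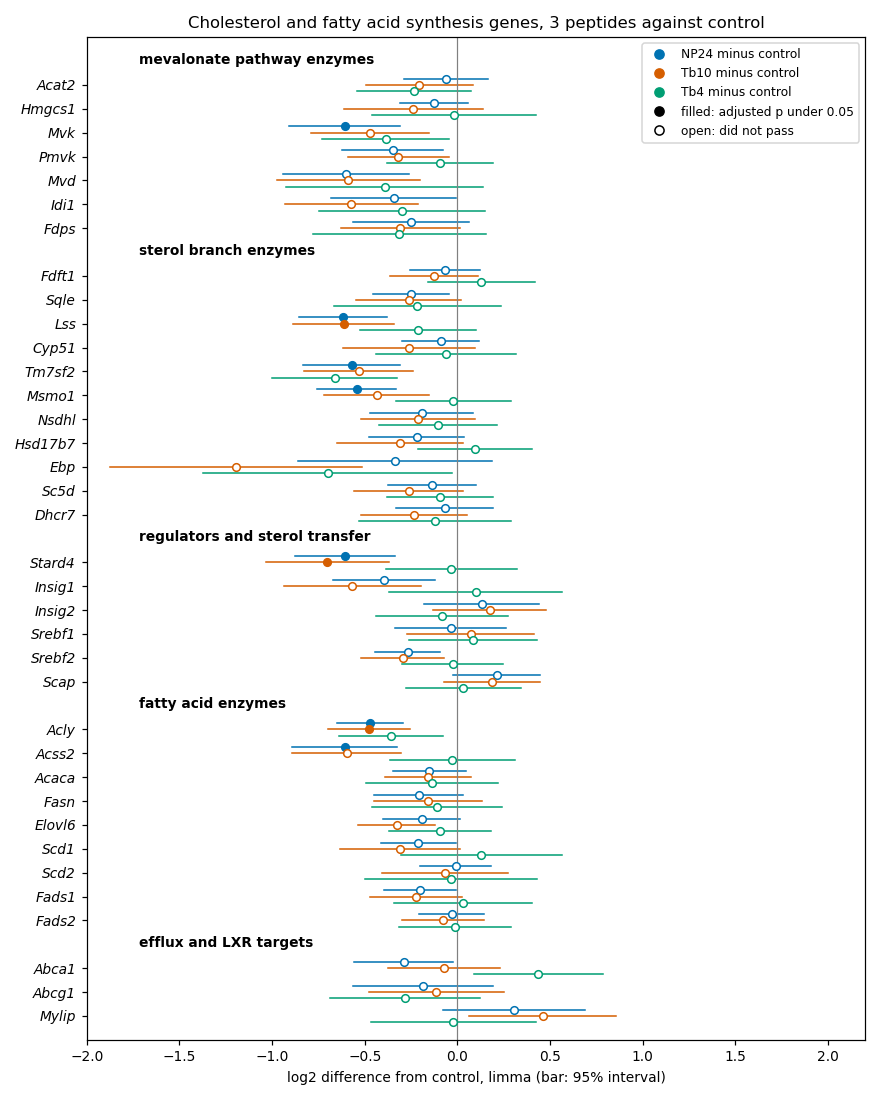
Log2 difference from control for each of the 36 members, by role, with NP24, Tb10 and Tb4 (points: limma estimate, bars: 95% interval, filled: adjusted p under 0.05). For NP24 7 points are filled, for Tb10 3 and for Tb4 0, and all 18 sterol enzymes lie left of 0 for NP24 and for Tb10.

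The efflux genes did not pass with NP24. Abca1, the main exporter of cholesterol to lipid-poor apolipoproteins (ENSMUSG00000015243.4, chromosome 4, 53030787 to 53159895, minus strand), had 1415, 1306, 1427 and 2164 in controls and 1153, 1381, 1243 and 1289.6 with NP24, so that NP24 library 2 lay within the controls (-0.29 ± 0.13, adjusted p = 0.249). Control library 4 was far above the other 3. Abcg1 had 287, 263, 276 and 356 against 245, 360.3, 203 and 247 (-0.19 ± 0.18, adjusted p = 0.657), with NP24 library 2 highest of all 8. Mylip had 259, 201, 178 and 312 against 273, 319, 312 and 249.9 (0.31 ± 0.19, adjusted p = 0.426), the largest positive value of the 36 members in this comparison, and the groups overlapped. The 95% limits for Abca1 were -0.56 to -0.02, below 0 before adjustment over all genes.

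The calls with NP24 rested partly on control library 1, which had the highest value of its group for 13 of the 18 sterol enzymes. Without it 1 member, Acly, passed, among 66 genes that fell (0.31%), and the median of the sterol enzymes was -0.19 with 17 of 18 negative. Mvk and Acss2 did not pass without control library 2 or 4, Mvk and Tm7sf2 without NP24 library 3, and Stard4 without NP24 library 1. With the spread estimated from all 16 libraries, 1 member passed (Lss), among 98 genes that fell. By DESeq2 on recovered reads Mvd and Srebf2 passed besides the 7, where 612 genes, 2.81%, fell; Mvd also passed by edgeR. The mitochondrial rRNA share was 5.98 to 8.12% with NP24 and 9.32 to 14.2% in controls, so the share and the peptide cannot be told apart. With that share as a covariate 0 members and 0 genes passed, 9 of 18 sterol enzymes were negative with a median of -0.04, and the 9 fatty acid enzymes were all negative with a median of -0.17.

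Markers of other cell types moved in the same comparison. The summed oligodendrocyte lineage markers were 8660 to 11315 with NP24 against 10764 to 13140, and 2 of 8 fell, Mbp and Olig2. Of 6 astrocyte markers 1 rose, Aqp4, with summed levels of 6459 to 7400 against 5077 to 6357. Slc1a3, most of that sum, had a mean of 4530.5 against 3686, and the means of Gfap and Aldoc were higher too. Aldh1l1 was about equal (519 against 518), and Gja1 was lower on average (379 against 517). Of the microglial markers 3 of 5 tested fell (summed 1454 to 1577 against 1641 to 1982), of the fibroblast markers 3 of 3 (19.7 to 66.1 against 184 to 317), and of the pericyte and endothelial markers 2 of 3 (203 to 253 against 329 to 489). Of all genes 1.47% fell. Cx3cr1, most of the microglial sum, was not lower (mean 1362 against 1304). Col1a1, Col1a2, Col3a1 and Laptm5 were under 10 in 1 or more NP24 libraries. They passed the filter on low values only with the controls, which favours falls in these counts. This holds for every fibroblast marker tested. Dcn and Lum were not tested. None of 6 neuronal markers passed, and their sum was 63648 to 70061 against 55772 to 62685. The part of these cells in the values of the 36 members was not tested.

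**Figure D3:**
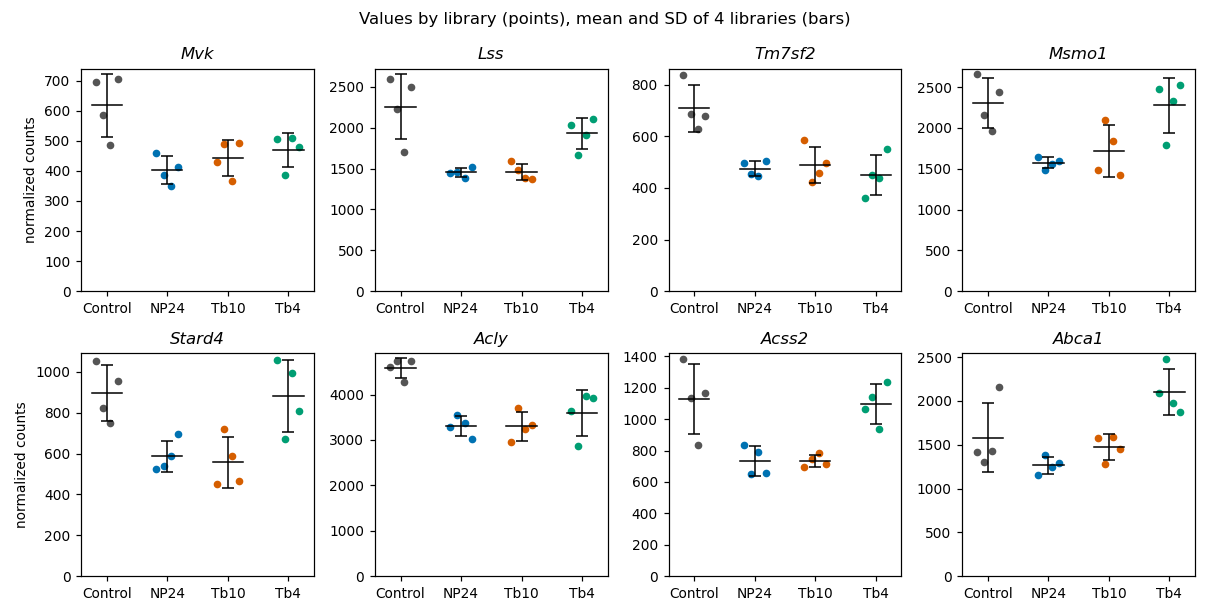
Normalized counts of 8 members in each library (points), with mean and SD of the 4 libraries of a group. For Lss the NP24 libraries (1387 to 1523) and the Tb10 libraries (1371 to 1593) lie below all controls (1702 to 2595), while for Abca1 the Tb4 libraries (1876 to 2476) lie above all NP24 libraries (1153 to 1381).

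The comparison of Tβ10 with the vehicle asked the same of a β-thymosin, with the same 4 control libraries. With Tβ10, 3 members fell and none rose: Lss, Stard4 and Acly. Among all 21960 genes tested 117 fell, 0.533%, and 22 rose; with scaling to library size 67 fell and 56 rose. In 7 of 36 members every Tβ10 library was below every control, against 3.95% of all genes. The median of the 36 was -0.26 with 32 negative, against a median of -0.0049 over all genes. The 18 sterol enzymes were all negative with a median of -0.31 and 1 fell; the 9 fatty acid enzymes were all negative (7 of 9 with scaling to library size) with a median of -0.23 and 1 fell.

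Lss had 1593, 1478, 1387 and 1371 normalized counts in Tβ10 libraries 1 to 4, all below the lowest control of 1702, and fell 1.53-fold (-0.61 ± 0.13, adjusted p = 0.0351). Stard4 had 449, 720.0, 591 and 467, with library 2 only slightly under the lowest control, and fell 1.63-fold (-0.70 ± 0.16, adjusted p = 0.0493). Acly had 2946, 3709.9, 3231 and 3325, again with library 2 highest and no overlap, and fell 1.39-fold (-0.48 ± 0.11, adjusted p = 0.0488). The adjusted p values of Stard4 and Acly lay just inside the threshold of 0.05. Just outside it was Acss2, with 697, 744, 784 and 713, no overlap with the controls and a difference of -0.60 ± 0.14 (adjusted p = 0.0589). Tm7sf2 had 585, 423, 458 and 496, also without overlap (-0.53 ± 0.14, adjusted p = 0.0995).

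Ebp, the isomerase that shifts a double bond of the sterol ring, gave the largest difference of any member with Tβ10 but did not pass. Its normalized counts were 53.6, 84.3, 53.1 and 29.0 against 158, 82.4, 120.1 and 128 in controls, a difference of -1.19 ± 0.32 (adjusted p = 0.114). Tβ10 library 2 was just above the lowest control, and library 4, the shallowest of all 16, was the lowest. Mvk had 429, 488, 365 and 491 (-0.47 ± 0.15, adjusted p = 0.208), overlapping the controls through libraries 2 and 4. Msmo1 had 1484, 2101, 1844 and 1429 (-0.44 ± 0.14, adjusted p = 0.181), with library 2 within the controls. Of the other sterol enzymes Mvd was at -0.59, Idi1, the isopentenyl diphosphate isomerase, at -0.57, and the remaining 11 lay between -0.32 (Pmvk) and -0.13 (Fdft1).

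Among the regulators, Insig1 had 602, 1023, 716 and 604 with Tβ10 (-0.57 ± 0.18, adjusted p = 0.177), where library 2 lay among the controls and the others were lower. Srebf2 had 3686, 4288, 4098 and 4584, below every control but not past the threshold (-0.29 ± 0.11, adjusted p = 0.272). Srebf1 had 557, 611, 596 and 909, with library 4 the highest of all 16 (0.07 ± 0.16, adjusted p = 0.911). Scap (0.18) and Insig2 (0.17) were again positive without passing. Of the later fatty acid enzymes, Elovl6 (-0.33, adjusted p = 0.166) did not overlap with the controls, and Scd1 (-0.31), Fads1 (-0.23), Fasn (-0.16), Acaca (-0.16), Fads2 (-0.08) and Scd2 (-0.07) did.

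For the efflux genes with Tβ10, Abca1 had 1573, 1278, 1589.8 and 1456 (-0.07 ± 0.14, adjusted p = 0.893) and Abcg1 238, 235, 277 and 348 (-0.11 ± 0.17, adjusted p = 0.856), both within the range of the controls or overlapping it. Mylip had 276, 381, 322 and 307, where 2 of 4 libraries were below control library 4 (0.46 ± 0.19, adjusted p = 0.357). None of the 3 passed.

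Tβ10 library 2 differed from the other libraries of its group across the pathway. It was the highest of the 4 for 14 of the 18 sterol enzymes and 6 of the 9 fatty acid enzymes; Hmgcs1 had 7168, 15347, 11422 and 8643 and Scd2 10557, 20739.6, 15650.1 and 15732 in libraries 1 to 4. Without this library 7 members passed (Lss, Msmo1, Ebp, Stard4, Insig1, Acly and Acss2), where 243 of all genes, 1.12%, fell, and the sterol median was -0.43. Without any 1 of control libraries 1, 2 or 4 or Tβ10 libraries 3 or 4, 0 members passed, where 28 to 62 of all genes fell, and with scaling to library size 0 passed as well. Without control library 3 Lss and Acss2 passed, among 81 genes that fell, and without Tβ10 library 1 Lss, Tm7sf2 and Acly, among 212. The mitochondrial rRNA share was 4.76 to 9.53% with Tβ10, highest in library 2, and with it as a covariate 0 members passed and the sterol median was 0.04. Of the markers, Aqp4 rose, 1 of 6 tested microglial, 3 of 3 fibroblast and 2 of 3 pericyte and endothelial genes fell, and no neuronal or oligodendrocyte lineage gene passed. Of all genes 0.533% fell. Col1a1, Col1a2, Col3a1, Laptm5 and C1qa were under 10 in 1 or more Tβ10 libraries. They passed the filter on low values only with the controls, which favours falls in these counts. This holds for every fibroblast marker tested. Summed levels with Tβ10 were 62242 to 69174 for neurons, 5126 to 8276 for astrocytes, 9395 to 12494 for the oligodendrocyte lineage, 1350 to 1808 for microglia, 24.7 to 67.7 for fibroblasts and 151 to 215 for pericytes and endothelium. Library 2 was at the upper end of each of these ranges except that of pericytes and endothelium. Cx3cr1 was not lower with Tβ10 (mean 1399 against 1304 in controls), while the means of the other listed microglial markers were lower. The part of these cells in the values of the members was not tested.

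With Tβ4, compared with the same controls, no member passed, and neither did any other gene by limma (0 of 22205, 0%). At an unadjusted p under 0.05 there were 5 members, 4 of them lower (Mvk, Tm7sf2, Ebp and Acly) and Abca1 higher, and 1568 genes in all. By edgeR 0 members and 0 genes passed, and by DESeq2 0 members and 75 genes. In 2 members, Tm7sf2 and Acly, every Tβ4 library was below every control, against 2.17% of all genes. The median of the 36 members was -0.09, of the sterol enzymes -0.17, of the fatty acid enzymes -0.03 and of the efflux genes -0.02.

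Tm7sf2 had 361, 451, 439 and 550.1 normalized counts in Tβ4 libraries 1 to 4 against 839, 687, 629 and 681 in controls, with no overlap but short of the threshold (-0.66 ± 0.16, adjusted p = 0.442). Acly had 3644, 2877, 3960.1 and 3913 (-0.36 ± 0.13, adjusted p = 0.578), library 2 being the lowest. Mvk had 506, 386, 508 and 479 (-0.39 ± 0.16, adjusted p = 0.661) and Ebp 91.5, 43.1, 81.4 and 87.5 (-0.70 ± 0.31, adjusted p = 0.699), both overlapping the controls. Other members that had fallen with NP24 gave values near 0: Msmo1 with 2472, 1787, 2327 and 2524 (-0.02 ± 0.14), Stard4 with 1057, 672, 995 and 809 (-0.03 ± 0.16) and Acss2 with 1067, 1143, 937 and 1235 (-0.03 ± 0.16). Lss lay between, with 2034, 1667, 1911 and 2102 (-0.21 ± 0.15, adjusted p = 0.868).

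Of the regulators, Insig1 had 1312, 703, 1316 and 1389 with Tβ4 (0.10 ± 0.22), where library 2 stood far below the other 3. Srebf2 had 5119, 4183, 5615 and 5203 (-0.03 ± 0.13), also lowest in library 2, and Srebf1 676, 534, 772 and 688 (0.08 ± 0.16). Abca1 had 2094, 2476, 1975 and 1876, each above 3 of the 4 controls, and highest in library 2 (0.44 ± 0.16, adjusted p = 0.597). Abcg1 had 287, 213, 287 and 193 (-0.28 ± 0.19) and Mylip 222, 260.0, 196 and 241 (-0.02 ± 0.21). No regulator or efflux gene passed the adjusted threshold, though the 95% limits for Abca1, 0.09 to 0.78, lay above 0.

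Tβ4 library 2 had the lowest value of its group for 16 of the 18 sterol enzymes and 6 of the 9 fatty acid enzymes. Hmgcs1 had 13135, 7587, 15916 and 12567 and Scd2 17129, 9649, 20447 and 17499 in Tβ4 libraries 1 to 4. Without library 2, 1 member passed, Tm7sf2, among 354 genes in all, and the median of the sterol enzymes was -0.07 with 11 of 18 negative. Without control library 1 that median was -0.09 with 12 of 18 negative, and with scaling to library size -0.26 with 16, where the median of all genes was -0.09. The mitochondrial rRNA share was 8.25% in library 2 and 13.2 to 24.3% in the others. With that share as a covariate 0 members passed and the sterol median was -0.30 with 16 of 18 negative. No marker of any of the 6 cell types passed with Tβ4. Summed levels were 47851 to 69648 for neurons, 6312 to 9233 for astrocytes, 9382 to 13361 for the oligodendrocyte lineage, 1600 to 2477 for microglia, 297 to 1323 for fibroblasts and 613 to 1274 for pericytes and endothelium. Library 2 had the highest neuronal sum and the lowest sum of every other cell type. The part of these cells in the values of the members was not tested.

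The sterol enzymes were next set against the fatty acid enzymes and the efflux genes within each library, as the mean log2 difference from the control mean over each class. For the 18 sterol enzymes libraries 1 to 4 gave 0.23, -0.10, -0.18 and 0.06 in the control group and -0.21, -0.34, -0.34 and -0.32 in the NP24 group. They gave -0.53, -0.12, -0.41 and -0.53 for Tβ10 and -0.11, -0.62, 0.01 and -0.10 for Tβ4. NP24 libraries were all below all controls, Tβ10 library 2 was within them, and Tβ4 library 2 was the lowest of all 16. For the 9 fatty acid enzymes the values were 0.04, 0.02, -0.10 and 0.05 in the control group and -0.16, -0.23, -0.25 and -0.29 in the NP24 group, then -0.46, -0.09, -0.28 and -0.25 for Tβ10 and -0.04, -0.32, 0.07 and 0.02 for Tβ4. NP24 libraries were again below all controls, and Tβ4 library 2 was the lowest of its group. For the 3 efflux genes they were -0.00, -0.20, -0.19 and 0.40, -0.15, 0.20, -0.14 and -0.13, -0.01, 0.04, 0.14 and 0.19 and 0.11, 0.13, 0.03 and -0.09 in the same order, and every peptide group overlapped the controls. The sterol minus fatty acid difference was -0.12 to 0.19 in the control group, -0.11 to -0.03 for NP24, -0.29 to -0.03 for Tβ10 and -0.30 to -0.06 for Tβ4. The sterol minus efflux difference was -0.34 to 0.23 in the control group, -0.54 to -0.06 for NP24, -0.72 to -0.16 for Tβ10 and -0.74 to -0.01 for Tβ4. In both contrasts each peptide group overlapped the controls. For sterol minus efflux the overlap came through control library 4, at -0.34, amid the peptide libraries. The other 3 controls, at 0.01 to 0.23, lay above all 12 peptide libraries. For control library 3 the margin was narrow, 0.009 against -0.012 in Tβ4 library 4. Control library 4 was set apart only after the values were seen, and with it the control group does not separate from the peptide groups. These class differences were not tested.

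**Figure D4:**
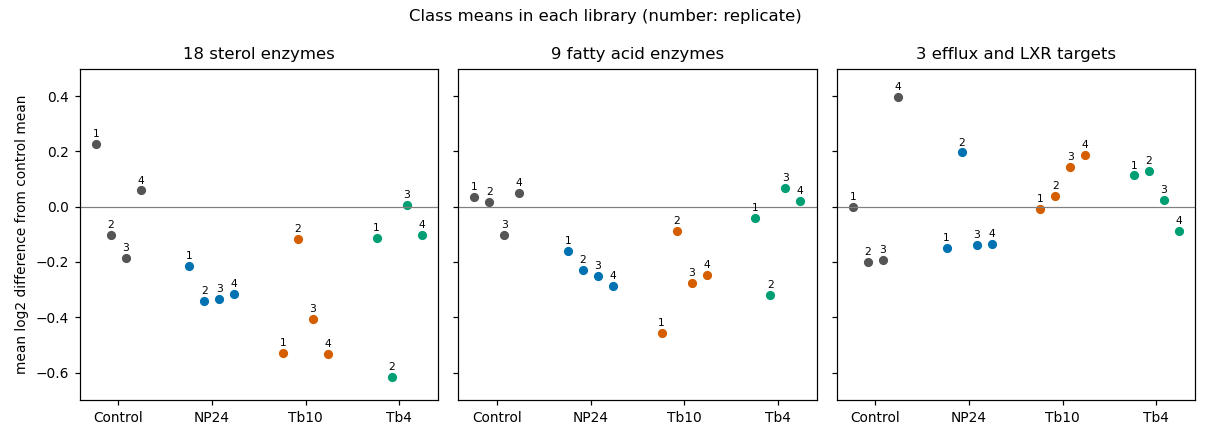
Mean log2 difference from the control mean in each library over the 18 sterol enzymes, the 9 fatty acid enzymes and the 3 efflux genes (points, numbered by replicate). Tb4 library 2 (-0.62) is the lowest point for the sterol enzymes, and Tb10 library 2 (-0.12) the highest of its group.

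The sterol class mean can be read beside the mitochondrial rRNA share of each library. Controls had shares of 9.32 to 14.2% and sterol means of -0.18 to 0.23, NP24 libraries shares of 5.98 to 8.12% and means of -0.34 to -0.21, and Tβ10 libraries shares of 4.76 to 9.53% and means of -0.53 to -0.12. With Tβ4 the shares in libraries 1 to 4 were 24.3, 8.25, 15.5 and 13.2%, beside sterol means of -0.11, -0.62, 0.01 and -0.10; library 2 had both the lowest share and the lowest mean of its group. What this share has to do with the sterol values was not tested.

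**Figure D5:**
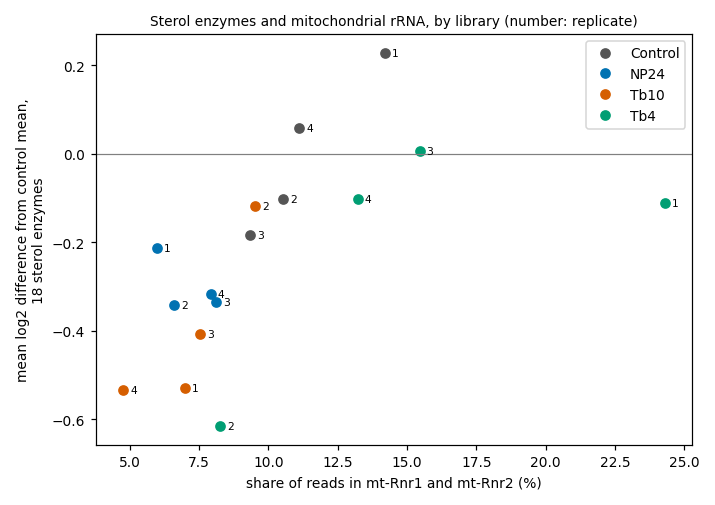
Mean log2 difference of the 18 sterol enzymes from the control mean against the percentage of reads in mt-Rnr1 and mt-Rnr2, for each library (points, coloured by group and numbered by replicate). The NP24 libraries (5.98 to 8.12%) lie left of and below all controls (9.32 to 14.2%), and Tb4 library 1 has the highest share, 24.3%, with a mean of -0.11.

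The peptides were compared with one another in a fit of all 16 libraries, which shows whether a member's level differs between peptides. Between NP24 and Tβ4, 2 members were lower with NP24, Acss2 and Abca1, where 400 of 24232 genes tested, 1.65%, were lower and 107 higher; with scaling to library size 269 were lower and 363 higher. Abca1 had 1153, 1381, 1243 and 1289.6 with NP24 and 2094, 2476, 1975 and 1876 with Tβ4, with no overlap and a difference of -0.73 ± 0.14 (adjusted p = 0.00881). Abca1 had not passed with either peptide against the controls, whose mean lay between. Acss2 had 838, 649, 788 and 655 against 1067, 1143, 937 and 1235, also with no overlap (-0.58 ± 0.14, adjusted p = 0.0342). Msmo1 (-0.52, adjusted p = 0.0506), Stard4 (-0.57, adjusted p = 0.0806) and Lss (-0.40, adjusted p = 0.0992) did not pass. Acss2 did not pass without NP24 library 2, 3 or 4 or without Tβ4 library 1 or 4, while Abca1 passed whichever library was left out. Without Tβ4 library 2, 8 members were lower with NP24, adding Lss, Msmo1, Stard4, Insig1, Scd1 and Fads1, where 762 of all genes, 3.18%, were lower.

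Between the thymosins, Acss2 was lower with Tβ10 (697, 744, 784 and 713) than with Tβ4 (1067, 1143, 937 and 1235), with no overlap (-0.57 ± 0.14, adjusted p = 0.0466), where 254 of 24232 genes, 1.05%, were lower and 72 higher; with scaling to library size 165 were lower and 449 higher, and Acss2 did not pass. Stard4 was just outside the threshold (-0.67 ± 0.17, adjusted p = 0.0503), and Abca1 (-0.51, adjusted p = 0.0751), Insig1 (-0.66, adjusted p = 0.11) and Mylip (0.48, adjusted p = 0.237) did not pass. The call for Acss2 was lost without any 1 Tβ10 library, without Tβ4 library 1 or 4, and in a fit of the 8 libraries compared alone. Without Tβ4 library 2, 8 members were lower with Tβ10, including Lss, Stard4, Insig1 and Srebf2, where 600 of all genes, 2.5%, were lower. Both peptides were set against the same Tβ4 libraries, so these comparisons are not independent.

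Between NP24 and Tβ10 no member passed, and no gene did by limma (0 of 24232, 0%), edgeR or DESeq2; 1 member, Ebp, and 591 genes had an unadjusted p under 0.05. The interval of the difference was -0.26 to 0.26 for Lss, -0.24 to 0.24 for Acly, -0.26 to 0.44 for Stard4 and -0.31 to 0.28 for Acss2. Ebp was higher with NP24 (100.1, 78.9, 102 and 96.9) than with Tβ10 (53.6, 84.3, 53.1 and 29.0), a difference of 0.86 ± 0.32 (adjusted p = 1), and the groups overlapped in Tβ10 library 2.

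Genes next to these pathways were taken from 2 further lists. Of 19 tested genes of sterol esterification, transport, oxysterol sensing and lipoprotein uptake, 0 passed with NP24, Tβ10 or Tβ4, and their medians were -0.13, -0.09 and -0.03. At an unadjusted p under 0.05 they numbered 6, 6 and 1, where 3710 of 21774, 2454 of 21960 and 1568 of 22205 genes tested had such a p. In the comparison of Tβ10 with Tβ4 1 of them passed, Smpdl3a, named here after its values were seen: it was lower with Tβ10 (77.2, 56.6, 48.6 and 40.9) than with Tβ4 (167, 126, 123 and 121), without overlap (-1.28 ± 0.25, adjusted p = 0.00985). Of 23 tested genes of fatty acid elongation, desaturation and activation, 1 passed: Elovl2, an elongase of polyunsaturated fatty acids, rose with NP24 from 715, 799.6, 683 and 514 in control libraries to 868, 923, 998 and 999.7 (0.50 ± 0.13, adjusted p = 0.0403), without overlap. Its values were 910.0, 1056, 995 and 810.0 with Tβ10 and 580.4, 716, 781 and 724 with Tβ4, where it did not pass. The medians of that list were -0.14, -0.06 and -0.01. Among all 21774 genes tested with NP24, 253 rose. At an unadjusted p under 0.05 the list numbered 7, 4 and 3 genes with NP24, Tβ10 and Tβ4.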

How the data were processed

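Total RNA of 16 libraries, 4 per group, was prepared with a SMARTer stranded kit, per the labels' protocols. The submitters' processing notes name HISAT, HISAT2, featureCounts, DESeq2, FastQC and the build GRCm38; versions, annotation and strand setting are not given in the sources used here. The deposited signal is, judged from its values, gene counts that the authors divided by a size factor per library: in every library 100% of nonzero values were whole multiples of 1 read (tolerance 0.01 reads), 1 read being worth 0.536 to 1.71 normalized counts, so reads could be recovered. Only the table of the Tβ4 comparison was used; it holds all 16 libraries.

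Differences were fitted by limma-trend (limma 3.58.1, R 4.3.3) on log2(value + 1), over every gene that reached 10 normalized counts in 4 or more libraries of the comparison. P-values were adjusted over all of these genes by Benjamini-Hochberg, and the threshold was 0.05. Comparisons with control used 8 libraries, comparisons between peptides all 16. The fit was also run on simulated data, with larger changes than those of members past the threshold and the same dispersion for every gene. That run does not show how the fit performs on the changes and spread seen here. Alternatives were library-size and TMM scaling, edgeR 4.0.16 and DESeq2 1.42.0 on recovered reads, pseudocounts of 0.1 and 10, no filter, a replicate block, the mitochondrial rRNA share as covariate, other libraries in the fit, and leaving out each library. Gene positions and exon lengths came from GENCODE M21. The members and lists were chosen with earlier results of these data known. Values in every library are given for members past the threshold against control, the efflux genes, Srebf1, Srebf2, Insig1 and the member of each other class with the largest difference. Mvd, Hmgcs1 and Scd2 were added after their values were seen. Of the further lists, genes past the threshold against control are named. No pair of libraries of a group agreed within sampling noise (lowest chi-square per degree of freedom 10.2).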

Additional observations from a re-analysis of the deposited data

Results flagged for a closer look

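In 8 of 144 sets of 4 libraries (36 members in 4 groups), 1 library stood apart from the other 3. The gap took up more of the group's range than Dixon's 95% critical value allows. Chance flags about 1 set in 20. The 8 flags are near that rate, so they do not set a single value apart from chance. Of these, 3 were low values of Tβ4 library 2: Idi1, at 232 normalized counts against 371 to 387 in the others, Hsd17b7 at 455 against 607 to 628, and Insig1 at 703 against 1312 to 1389. Acat2, an acetoacetyl-CoA thiolase, stood apart in both NP24 library 2 (731 against 850 to 864) and Tβ10 library 2 (987 against 653 to 701), low in one and high in the other. Sqle was high in control library 1, at 2903 against 2306 to 2341. Srebf1 was high in Tβ10 library 4, at 909 against 557 to 611. Abca1 was high in control library 4, at 2164 against 1306 to 1427.

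Members also differed between peptides by a test of the difference itself, in limma fits of all 16 libraries. Acss2 was lower with NP24 than with Tβ4 (log2 -0.58, adjusted p = 0.0342) and lower with Tβ10 than with Tβ4 (-0.57, adjusted p = 0.0466), in 4 of 4 libraries each. Abca1 was lower with NP24 than with Tβ4 (-0.73, adjusted p = 0.00881), in 4 of 4 libraries.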

How the results depend on the processing

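The number of members past the threshold depended on the processing. For NP24 against control (7 members) it was 0 with the mitochondrial rRNA share as a covariate, 1 with the spread of all 16 libraries, 9 by DESeq2, 8 by edgeR, and 1 to 8 when a library was left out. For Tβ10 against control (3 members) it was 0 with scaling to library size, no filter or the covariate, 1 by edgeR, with a pseudocount of 0.1, the replicate block or the spread of all 16 libraries, 6 by DESeq2, and 0 to 7 when a library was left out. For Tβ4 against control (0 members) it was 0 to 1 when a library was left out. For NP24 against Tβ4 (2 members) it was 1 with scaling to library size, no filter, the replicate block or only the 8 libraries compared, 0 with the covariate, 5 by DESeq2, and 1 to 8 when a library was left out. For Tβ10 against Tβ4 (1 member) it was 0 with library size or TMM scaling, a pseudocount of 0.1, no filter, the replicate block, the covariate or only the 8 libraries compared, 2 with a pseudocount of 10, 4 by DESeq2, and 0 to 8 when a library was left out. For NP24 against Tβ10 it was 0 in every setting run. Where the number of calls over all genes is not printed for a setting, its count cannot be read as particular to the members. The cause was not tested.

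The 13 named values past the threshold passed in 149 of 234 recomputed values. All 234 kept the direction, which says little. The 13 were picked as past the threshold in these same data, and some settings leave the estimate unchanged. The 32 that had not passed changed sign in 30 of 576 and passed in 12. In the NP24 comparison Lss passed in 16 of 18 alternatives and Acly in 16 of 18; in the Tβ10 comparison Lss passed in 10, Stard4 in 4 and Acly in 5. Over all genes, NP24 gave 572 calls and DESeq2 1178; the spread from 16 libraries gave 120 and the covariate 0. Tβ10 gave 139 calls and, in the same order, 423, 62 and 0. Scaling to library size moved the median of all genes to 0.13 for NP24 against Tβ4 and 0.18 for Tβ10 against Tβ4. Same-numbered libraries did not deviate together (correlations from -0.09 to 0.08 in the comparisons with control), so the replicate numbers were not taken to pair the samples. The block gave 8 members for NP24, 1 for Tβ10 and 0 for Tβ4.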
